A study of Mus musculus with 20 samples.

Results

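The tissue in which migratory-type dendritic cells were found was compared in mice that lack the erythropoietin receptor in type 1 conventional dendritic cells (cDC1s). All genes of 3 RNA-seq libraries from peripheral lymph nodes (pLN cKO, replicates 1 to 3) were set against all genes of 3 libraries from spleen (Spleen cKO, replicates 1 to 3), which are 6 of the 20 libraries of the series. Both groups came from Epor-Xcr1-Cre cKO mice, in which a Cre recombinase driven from Xcr1 deletes Epor, so other cell types of these mice keep the gene. Which exons are removed is not given in the sources used here. Control libraries (pLN Ctrl and Spleen Ctrl, 3 of each) came from Eporflox/flox mice. The sample labels give both tissues as CCR7+ XCR1+ SIRPa- cDC1s and add migratory for the lymph node, while the series' design text names CCR7 only for the spleen. If the gates differed, tissue and gate cannot be told apart. Age, sex and any treatment of these mice are not given in the sources used here, nor whether each library is 1 animal, so p-values measure the spread between these libraries.

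cDC1s depend on the transcription factors IRF8 and BATF3, take up dying cells and present their antigens to CD8 T cells. When they mature they raise the chemokine receptor CCR7, which guides them into the T cell areas of lymphoid organs. They then stop sampling antigen, remodel their cytoskeleton and display what they have already loaded on MHC molecules. In lymph nodes the cells called migratory arrive from the drained tissue through lymph, whereas cDC1s of the spleen develop in that organ and reach its T cell zone from the marginal zone or red pulp.

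Depth in the 6 libraries ran from 32213679 to 49700660 counts, and 3 counts, taken as the floor, were worth 0.0568 to 0.0998 CPM. CPM is the counts-per-million level on scaled library sizes, and ± after a CPM is the SD of 3 libraries. Correlations of log2 CPM were 0.947 to 0.968 within the lymph node group and 0.952 to 0.954 within the spleen group. The 50 most abundant genes took 24.8 to 26.3% of counts in lymph node and 32.5 to 33.9% in spleen. Mitochondrial genes took 0.495 to 0.855% and 0.79 to 0.957%. Without scaling for composition the log2 fold change of every gene moved up by about 0.25, and the directions given here are relative to that shift. Epor, the deleted gene, had 0, 0 and 0 counts in the lymph node cKO libraries and 0, 2 and 0 in the spleen cKO libraries, against 24, 28 and 4 and against 1, 0 and 6 in the matching controls. The spleen controls were too low for the loss to be detectable there at this depth.

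Of 17362 genes tested, 5107 (29.4%) differed between the tissues with edgeR's quasi-likelihood test and Benjamini-Hochberg adjustment at 0.05. These were 2454 higher in lymph node (14.1%) and 2653 lower (15.3%), and 2483 of them differed by more than 2-fold (1082 higher, 1401 lower). The 3 lymph node values lay wholly above or below the 3 spleen values in 8833 genes (50.9%). The immunoglobulin J chain and constant genes had the smallest adjusted p-values among the falls, and the secreted chaperone Clu among the rises of genes averaging 3 log2 CPM or more. The plot of fold change against adjusted p shows both arms.

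**Figure D1:**
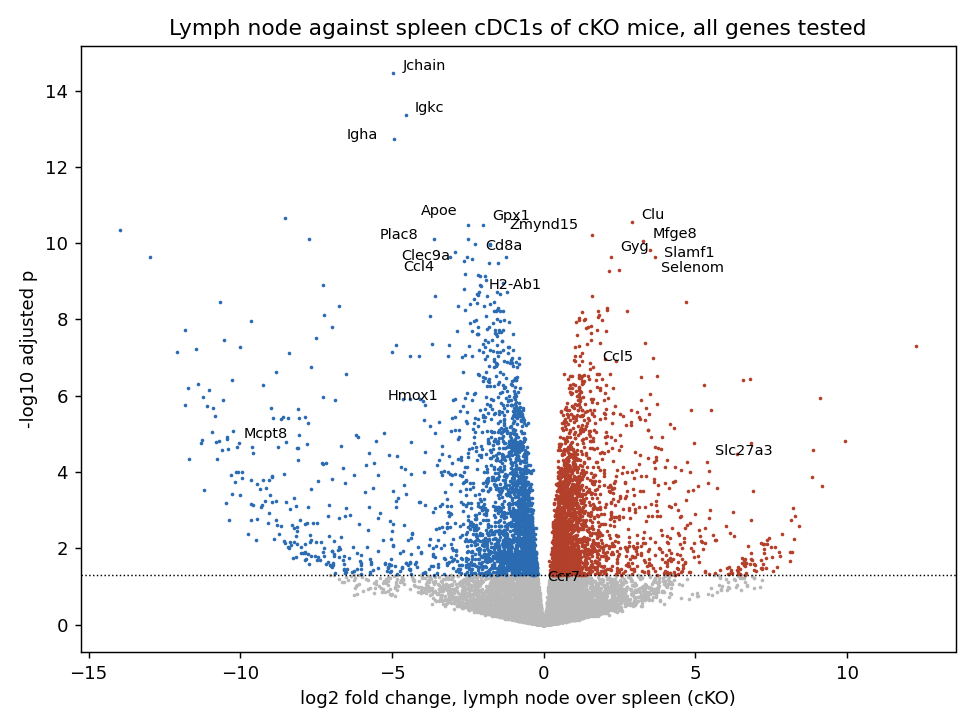
Each point is 1 of the 17362 genes tested, with the log2 fold change of lymph node over spleen cKO libraries on the x axis and -log10 of the adjusted p on the y axis; red points were called higher, blue points lower, and the dotted line marks the threshold of 0.05. Jchain, Igkc and Igha stand at the top of the falls, Clu and Zmynd15 at the top of the rises, and Ccr7 lies below the line.

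Both groups carry the cDC1 label, but genes of a cDC1 identity list stood lower in the lymph node. Of its 33 tested genes, 24 fell and 1 rose, with a median log2 fold change of -1.34 against 0.00 over all genes tested. Xcr1 had 24.9, 24 and 19.3 CPM in the lymph node libraries and 76.8, 80.0 and 78.9 CPM in the spleen libraries. Xcr1 encodes the chemokine receptor used in both gates, and all 3 lymph node libraries lay below all 3 spleen libraries (log2 fold change -1.79 ± 0.15, adjusted p = 3.54e-07). Sirpa had 4.64, 8.87 and 5.55 CPM in the lymph node libraries and 17, 17.4 and 12.8 CPM in the spleen libraries. This gene, whose protein was gated out, was thus low in both groups and lower in lymph node (log2 fold change -1.31 ± 0.26, adjusted p = 0.00123). Scaled by the summed exon length of the gene, the level of Xcr1 was 5.11 RPKM in lymph node and 17.6 RPKM in spleen, and that of Sirpa 1.29 and 3.2.

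Cd8a had 183, 199 and 193 CPM in the lymph node libraries and 942, 953 and 876 CPM in the spleen libraries. Cd8a, on chromosome 6 (71373427 to 71379173 of mm10, plus strand), the surface marker of resident cDC1s in lymphoid organs, fell in every lymph node library without overlap (log2 fold change -2.27 ± 0.09, adjusted p = 1.08e-10). Clec9a had 22.6, 19 and 19.1 CPM in the lymph node libraries and 112, 112 and 129 CPM in the spleen libraries. The receptor it encodes binds actin exposed by dead cells, and its transcript fell as clearly (log2 fold change -2.54 ± 0.11, adjusted p = 2.28e-10). Wdfy4, needed for cross-presentation of cell-bound antigen, fell by 2.18 on the log2 scale, and Tlr3, the receptor for double-stranded RNA, fell by 2.42. Batf3 went from 639 ± 42.6 to 376 ± 6.96 CPM (log2 fold change -0.77 ± 0.08, adjusted p = 3.28e-06).

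The transcription factors Irf8, Batf3 and Id2 moved less than Xcr1, Cd8a and Clec9a, while Mycl, another factor of the lineage, fell by 1.78 on the log2 scale. Irf8 had 1020.5, 1001 and 1054 CPM in the lymph node libraries and 1156, 1220.4 and 1179.7 CPM in the spleen libraries. Irf8 was called slightly lower, without overlap (log2 fold change -0.21 ± 0.07, adjusted p = 0.0321), but with total counts as the only scaling it was 0.035 higher and was not called (adjusted p = 0.708). Zbtb46, a transcription factor shared by all conventional dendritic cells, was the single riser of the list, with 276, 237 and 287 CPM in lymph node and 134, 153 and 139 CPM in spleen (log2 fold change 0.91 ± 0.12, adjusted p = 3.74e-05). Flt3, the receptor for the growth factor of dendritic cells, differed by only 0.08 and was not called. Id2, which the lineage needs, fell by 0.51.

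CD103 and langerin mark migratory cDC1s of skin and mucosa, and neither transcript was called. They belong to a list of 14 migratory and skin-associated genes, of which 3 rose and 4 fell, with a median of -0.37. Itgae had 4.02, 3.57 and 5.47 CPM in the lymph node libraries and 10.9, 6.56 and 6.75 CPM in the spleen libraries. Itgae, the CD103 gene, lay lower without overlap but did not pass the test (log2 fold change -0.89 ± 0.38, adjusted p = 0.0945). Cd207 had 5.62, 8.39 and 7.22 CPM in the lymph node libraries and 11.4, 12.9 and 7.86 CPM in the spleen libraries. The groups overlapped for Cd207, the langerin gene (log2 fold change -0.60 ± 0.26, adjusted p = 0.101). Epcam, found on Langerhans cells, differed by 0.31 ± 0.38 (SE) and was not called. Ltc4s (2.13, overlapping another gene), Cldn1 (0.43) and Tmem176b (0.20) rose, and Cd209a (-2.22), Ccl2 (-2.11), Cd24a (-1.11) and Dpp4 (-0.78) fell. Without pLN cKO replicate 2, or without Spleen cKO replicate 1, 1 of 13 rose and 3 fell.

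**Figure D2:**
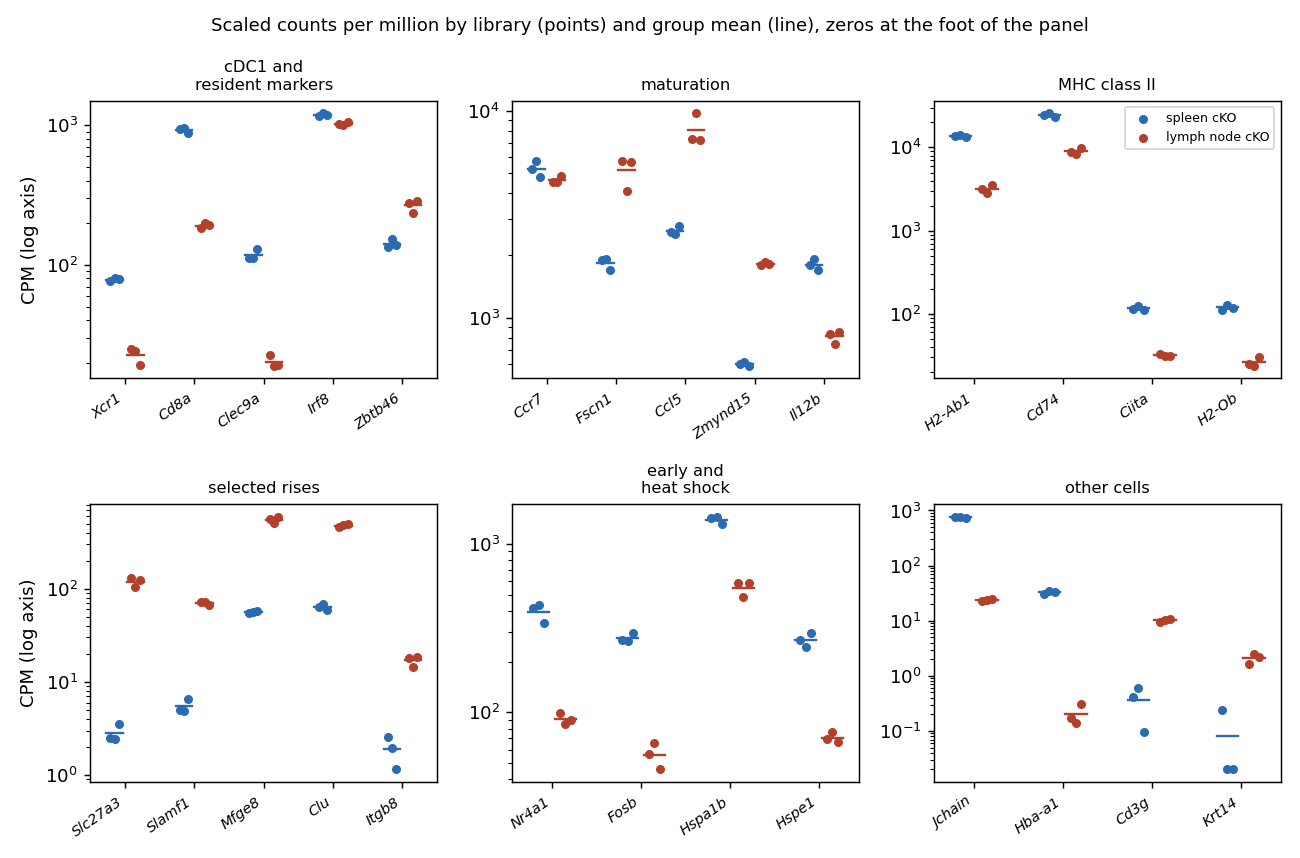
Scaled CPM on a log axis for named genes, with 1 point per library (blue, 3 spleen cKO; red, 3 lymph node cKO) and a line at the group mean. The groups overlap only for Ccr7 among the genes drawn, MHC class II genes sit lower in lymph node, and Jchain and Cd3g move in opposite directions. Krt14 was at 0 in 2 spleen libraries, drawn at the foot of the panel.

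Markers of other cells differed between the 2 sorts. In bulk libraries fewer cells of a type and less RNA per cell cannot be told apart. Of 16 plasma cell markers, 13 fell and 0 rose. Their summed level was 242 to 271 CPM in lymph node and 5008 to 5413 CPM in spleen. Jchain had 23.3, 24.1 and 25.2 CPM in the lymph node libraries and 764, 753 and 734 CPM in the spleen libraries. This chain joins IgA and IgM units in antibody-secreting cells (log2 fold change -4.95 ± 0.08, adjusted p = 3.57e-15), and Igha (-4.94) and Igkc (-4.54) fell by about as much. Among immunoglobulin and T cell receptor segments 157 were called, 141 of them lower.

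T cell markers went the other way. Of 22 tested, 18 rose and 0 fell, with a median of 3.33, and their sum was 367 to 397 CPM in lymph node and 140 to 151 CPM in spleen. Cd3g had 9.38, 10.1 and 10.8 CPM in the lymph node libraries and 0.414, 0.599 and 0.0955 CPM in the spleen libraries. The gene of the CD3 gamma chain was low in both groups and higher in every lymph node library (log2 fold change 4.76 ± 0.80, adjusted p = 0.000317). Cd6 and Bcl11b averaged only 0.324 and 0.39 CPM in spleen, so the sum there came mostly from other members of the list. Cd4 (-0.29) and Cd8b1 (-0.15) were not called. The part of T cell RNA in the rises of other genes given below was not tested.

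The spleen libraries also held more transcripts of blood-borne cells. Globin genes led 5 of 8 erythroid and platelet markers that fell, and their sum was 6.52 to 9.76 CPM against 83.7 to 92.7 CPM. Hba-a1 had 0.173, 0.137 and 0.303 CPM in the lymph node libraries and 30.3, 34.9 and 33.6 CPM in the spleen libraries. Reads of this alpha globin gene can be shared with its near-identical copy Hba-a2, and both fell without overlap. Of 14 neutrophil and monocyte markers 10 fell, and Camp and Ngp had 0 CPM in all 3 lymph node libraries against 5.12, 2.93 and 5.09 and 3.63, 4.19 and 5.5 CPM in spleen. Of 6 basophil and mast cell markers 4 fell, and Prss34 and Mcpt8 were at 0 in lymph node. B cell markers fell in 6 of 18, with Ms4a1 at 2.81, 0.64 and 1.63 and 37.7, 47.4 and 42.7 CPM.

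Macrophage and monocyte-related markers were mixed. Of 19 macrophage markers 7 fell and 2 rose, with sums of 259 to 285 and 594 to 670 CPM, and Apoe with 264, 286 and 252 CPM in spleen made up much of the difference. Cd209b, a lectin of marginal zone macrophages and lymph node sinuses, went from 0, 0.0666 and 0 to 1.17, 3.59 and 3.58 CPM. Of 20 cDC2 and monocyte-derived markers 8 fell and 1 rose (sums 236 to 245 and 329 to 343 CPM), and of 16 plasmacytoid dendritic cell markers 5 fell and 1 rose (3 fell without Spleen cKO replicate 1), with Siglech below 2 CPM in both means. Natural killer and innate lymphoid markers had overlapping sums of 46.7 to 52.8 and 46.6 to 50.9 CPM. Langerhans and keratinocyte markers summed to 530 to 612 against 80.8 to 82.1 CPM, which was almost all Mfge8, with Krt14 at 1.64, 2.49 and 2.22 CPM in lymph node. Stromal markers summed to 21.6 to 23.2 against 9.42 to 14.5 CPM. With receptor segments and all these markers taken out of the table, 4820 of the 5107 calls were kept in the same direction (94.4%). The rows taken out were themselves among the calls. Other transcripts of the same cells stayed in the table, so this count does not measure their part in the calls that remain.

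**Figure D3:**
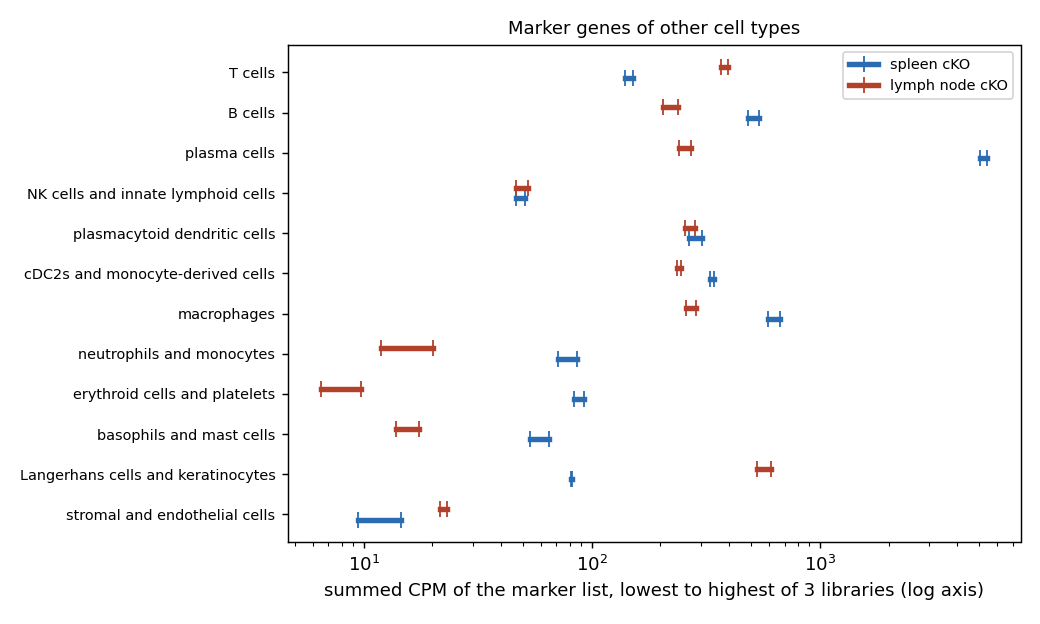
Summed CPM of each marker list on a log axis, drawn from the lowest to the highest of 3 libraries in spleen cKO (blue) and lymph node cKO (red). Plasma cell, erythroid, neutrophil and basophil markers sit higher in spleen, T cell and Langerhans or keratinocyte markers higher in lymph node, and natural killer markers overlap.

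The CCR7-linked maturation program was present in both tissues and stood, by count, more often higher in the lymph node. Among its 53 tested members were 25 rises and 11 falls, and the median was 0.32. Ccr7 had 4530.4, 4504 and 4819.5 CPM in the lymph node libraries and 5250.0, 5703 and 4769 CPM in the spleen libraries. Ccr7 itself, part of the sort gate, overlapped between the groups and was not called (log2 fold change -0.18 ± 0.08, adjusted p = 0.101). Fscn1 had 5732, 4071 and 5657 CPM in the lymph node libraries and 1900.0, 1923 and 1705 CPM in the spleen libraries. Fascin bundles actin in the long processes of mature dendritic cells, and its transcript was higher in every lymph node library (log2 fold change 1.48 ± 0.13, adjusted p = 3.6e-07). Ccl5 had 7303, 9715 and 7208 CPM in the lymph node libraries and 2581, 2548 and 2779 CPM in the spleen libraries. This chemokine was among the most abundant transcripts of the lymph node cells (log2 fold change 1.62 ± 0.13, adjusted p = 1.72e-07).

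Zmynd15 had 1789, 1862 and 1810.3 CPM in the lymph node libraries and 597, 609 and 587 CPM in the spleen libraries. Zmynd15, a gene commonly listed in this program, had the tightest rise of the list (log2 fold change 1.61 ± 0.06, adjusted p = 6.04e-11). Part of its exons is shared with Cxcl16 on the opposite strand, and strand was not used in counting. Il15ra rose by 1.07 and Il15 by 0.44, the pair that presents interleukin 15 to T cells and natural killer cells. Relb rose by 0.49 and Nfkb2 by 0.54, the transcription factor pair of the noncanonical NF-kB pathway. Socs2, Birc3 and Ccl22 rose by 0.42 to 0.57. Stat4 rose by 1.65, but 26.7% of its exon bases are shared with the model Gm28177, which makes its counts uncertain.

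Several members of the same program that act in costimulation or as cytokines fell. Il12b had 833, 750.0 and 859 CPM in the lymph node libraries and 1799, 1919.8 and 1693 CPM in the spleen libraries. Il12b, the shared subunit of interleukins 12 and 23, was lower without overlap (log2 fold change -1.15 ± 0.07, adjusted p = 1.17e-08). Cd80 went from 53.1, 52.7 and 58.4 to 25.9, 22.4 and 19.9 CPM (log2 fold change -1.27 ± 0.14, adjusted p = 8.02e-06). Cd86 fell by 0.66, Cd83 by 0.89, Cd200 by 0.94 and Cd274, the PD-L1 gene, by 0.65. Cd40 had 679, 687 and 749 CPM in the lymph node libraries and 706, 727 and 717 CPM in the spleen libraries. Cd40 values overlapped and did not pass the test (log2 fold change -0.02 ± 0.07, adjusted p = 0.832), and with total counts as the only scaling the gene was called 0.22 higher (adjusted p = 0.0237). Of 26 costimulatory and checkpoint genes 11 fell and 0 rose. With total counts only, 3 rose and 9 fell. Btla (-1.99), Havcr2 (-2.0), Lag3 (-2.11) and Ctla4 (-2.12), which encode inhibitory receptors, had the largest falls among the called members. Tnfsf4, the OX40 ligand gene, lay lower by a log2 fold change of -2.27 but was not called (adjusted p = 0.0697).

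Genes of MHC class II presentation fell together. Of 20 tested 15 fell and 2 rose, with a median of -1.32, and their summed level was 21002 to 23732 CPM in lymph node and 57847 to 62613 CPM in spleen. H2-Ab1 had 3189, 2808 and 3563 CPM in the lymph node libraries and 13853, 14223 and 13203 CPM in the spleen libraries. The beta chain of I-A, encoded on chromosome 17 (34257689 to 34269419 of mm10, plus strand), was lower in all 3 lymph node libraries (log2 fold change -2.11 ± 0.11, adjusted p = 1.28e-09). Cd74 had 8815, 8319 and 9798 CPM in the lymph node libraries and 24345, 25811 and 23144 CPM in the spleen libraries. The invariant chain that guards the peptide groove fell as well (log2 fold change -1.44 ± 0.08, adjusted p = 2.15e-09). Ciita had 32.6, 31.4 and 31.4 CPM in the lymph node libraries and 113, 124 and 112 CPM in the spleen libraries. CIITA is the coactivator that switches on this gene set (log2 fold change -1.87 ± 0.17, adjusted p = 5.55e-07). B cells, macrophages and cDC2s also carry class II, and their marker sums were lower in lymph node as well (206 to 238 against 482 to 541 CPM, 259 to 285 against 594 to 670 CPM, and 236 to 245 against 329 to 343 CPM). Their part in these falls was not tested.

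The accessory chains moved with the classical ones. H2-Ob had 24.7, 23.9 and 30.2 CPM in the lymph node libraries and 112, 129 and 118 CPM in the spleen libraries. H2-O restrains the peptide editor H2-DM (log2 fold change -2.19 ± 0.15, adjusted p = 2.4e-08). H2-DMb1 went from 236 ± 11.7 to 76.5 ± 4.66 CPM and H2-DMa from 261 ± 9.69 to 84.9 ± 8.64 CPM. March1, the ligase that marks surface class II for turnover, fell by 2.37, with 2.2, 2.33 and 2.29 CPM in lymph node against 13.2, 11 and 11.2 CPM. Ctss, the protease that trims the invariant chain, rose by 0.27. Rfxank also rose (1.07), but it shares 33.8% of its exon bases with Nr2c2ap. The counts were 15 lower in each of the fits without pLN cKO replicate 2 or Spleen cKO replicate 1.

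Class II promoters carry a conserved X-Y module close to the start site, and the Y box is an inverted CCAAT motif bound by NF-Y. Stretches from position -130 to position -31, counted from the annotated start, are shown for 4 members that fell together, with each TGATTGG in capitals. They were taken from the RefSeq promoter table of GRCm38.p6 and read along the gene's strand. The stretches lie at chr17:34287854-34287953 (minus strand) for H2-Aa, chr17:34305737-34305836 (plus strand) for H2-Eb1, chr17:34238775-34238874 (plus strand) for H2-Ob and chr17:34153061-34153160 (plus strand) for H2-DMb1. The 4 were picked with their values known, from the 14 of 20 list genes that the table holds.
H2-Aa: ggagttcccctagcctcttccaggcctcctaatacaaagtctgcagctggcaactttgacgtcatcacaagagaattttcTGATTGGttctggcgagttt
H2-Eb1: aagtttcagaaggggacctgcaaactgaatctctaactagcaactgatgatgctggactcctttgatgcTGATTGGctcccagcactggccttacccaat
H2-Ob: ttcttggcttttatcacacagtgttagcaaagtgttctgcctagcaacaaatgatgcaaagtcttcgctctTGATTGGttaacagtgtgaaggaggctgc
H2-DMb1: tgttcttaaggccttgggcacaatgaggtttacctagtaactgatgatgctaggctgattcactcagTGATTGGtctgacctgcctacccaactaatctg
The motif TGATTGG begins at -50 in H2-Aa, -61 in H2-Eb1, -59 in H2-Ob and -63 in H2-DMb1. Searched on both strands from 250 bases before to 50 bases after the start, it lay in 8 of the 14 list promoters and in 7.82% of 32851 promoters. H2-Aa went from 7727 ± 203 to 3352 ± 115 CPM and H2-Eb1 from 7678 ± 35.4 to 2672 ± 67.1 CPM. A match is a description of these letters, and no binding was measured.

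MHC class I genes differed by small amounts in both directions. Of 30 genes of class I and cross-presentation 11 rose and 8 fell, with a median of 0.03, and with total counts only 17 rose and 4 fell. Without pLN cKO replicate 2 the falls numbered 5. H2-K1 had 9141, 8896 and 9504 CPM in the lymph node libraries and 7996, 8281 and 8007 CPM in the spleen libraries. H2-K1 was called higher by a small margin (log2 fold change 0.18 ± 0.06, adjusted p = 0.0217), and H2-D1, the other classical gene, overlapped (log2 fold change 0.12 ± 0.10, adjusted p = 0.428). H2-M2 had 1248, 1181 and 1342 CPM in the lymph node libraries and 526, 512 and 483 CPM in the spleen libraries. H2-M2, a nonclassical class I gene, had the steepest rise of the list (log2 fold change 1.31 ± 0.08, adjusted p = 1.01e-08). H2-Q7 (0.73) and H2-Q6 (0.60) also rose, but reads of these near-identical copies can be shared. Tapbpl, which edits class I peptides, rose by 0.95, and the immunoproteasome genes Psmb8 and Psmb10 by 0.49 and 0.55. Cybb, the catalytic subunit of the phagosomal oxidase, fell by 3.90 from 8.87, 7.35 and 8.78 CPM, and Cyba by 0.51. In Ctrl mice the Cybb difference was -0.84, and the difference between genotypes was not called.

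**Figure D4:**
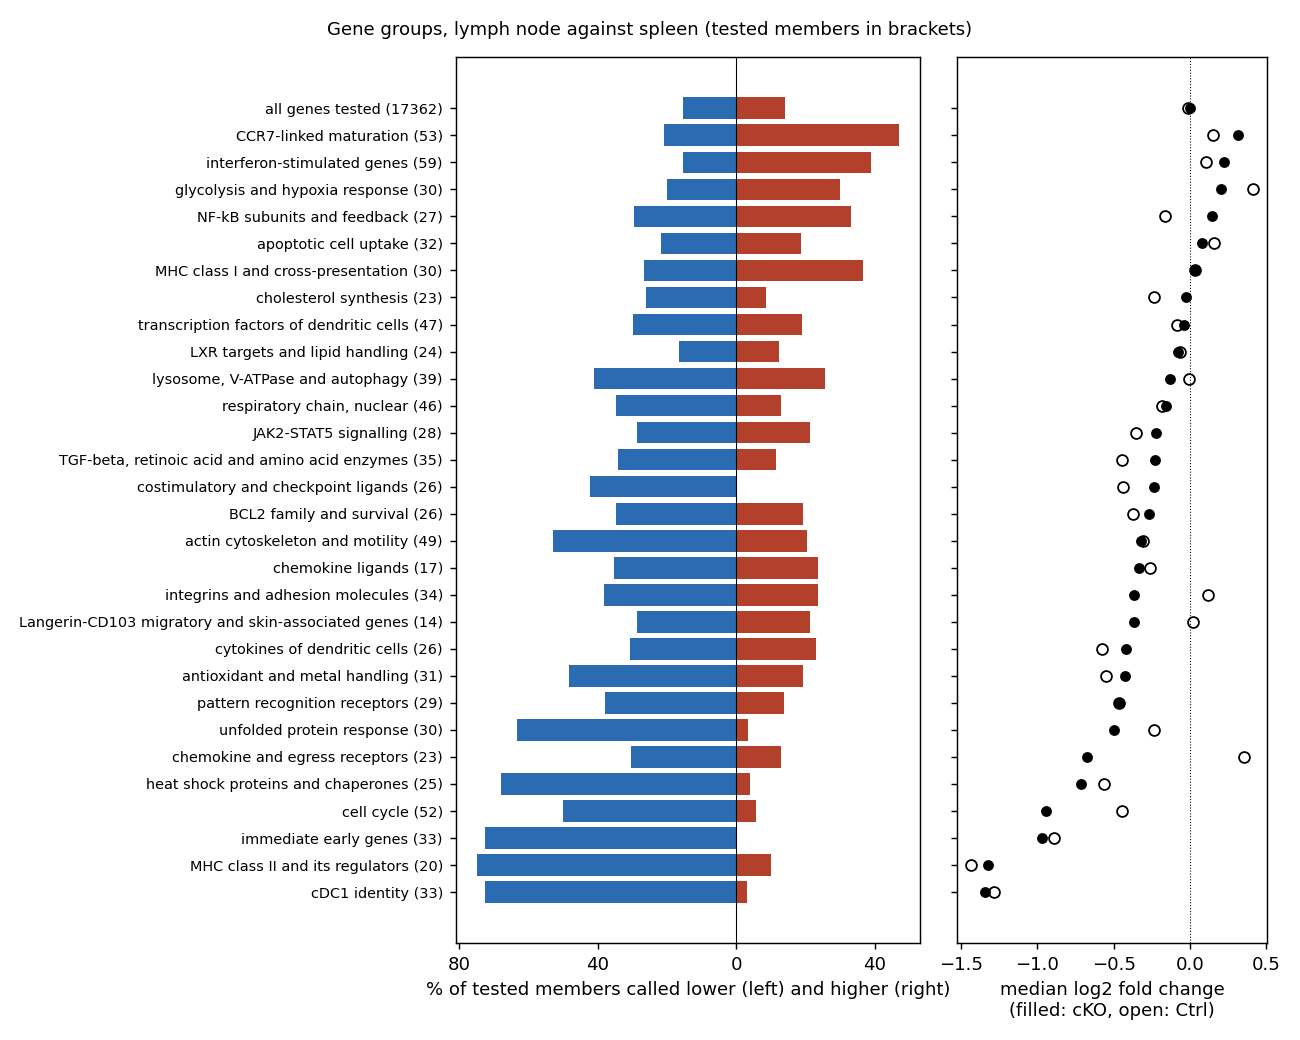
For each gene group and for all genes tested, the left panel gives the percentage of tested members called lower (blue, to the left) and higher (red, to the right) in lymph node, and the right panel the median log2 fold change in cKO (filled) and Ctrl (open). Class II, cDC1 identity and immediate early genes lie furthest to the left, with cKO medians of -1.32, -1.34 and -0.97.

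Chemokine ligands went both ways. Of 17 tested 4 rose and 6 fell. Ccl17 and Ccl22, the ligands of CCR4, both rose: Ccl17 had 22.2, 19 and 20.5 CPM in lymph node and 9.99, 7.32 and 8.37 CPM in spleen (log2 fold change 1.26 ± 0.18, adjusted p = 7.12e-05), and Ccl22 rose by 0.53. Cx3cl1 had 64.8, 86.9 and 78.2 CPM in the lymph node libraries and 24.8, 25.2 and 18.8 CPM in the spleen libraries. Fractalkine was higher in every lymph node library (log2 fold change 1.74 ± 0.15, adjusted p = 5.99e-07). Cxcl9 and Cxcl10, ligands of CXCR3, fell, and so did the inflammatory chemokines Ccl3 and Ccl4. Cxcl9 had 25.2, 31.9 and 24.4 CPM in the lymph node libraries and 172, 162 and 170.5 CPM in the spleen libraries. Cxcl9 fell with Cxcl10 (-2.52) and without overlap (log2 fold change -2.63 ± 0.14, adjusted p = 1.59e-09). Ccl4 had 9.09, 8.57 and 8.09 CPM in the lymph node libraries and 76.8, 72.6 and 67.9 CPM in the spleen libraries. Ccl4 fell beside Ccl3 (-3.44), while Ccl5 rose. Cxcl16 values overlapped between the groups and were not called, and 18.3% of its exon bases are shared with Zmynd15.

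Among 23 chemokine and egress receptors 3 rose and 7 fell. S1pr1 had 37.5, 40.3 and 38.8 CPM in the lymph node libraries and 17.6, 12 and 10.4 CPM in the spleen libraries. S1pr1, a receptor for the lipid that guides cells out of lymphoid organs, rose (log2 fold change 1.54 ± 0.19, adjusted p = 1.53e-05), as did S1pr4 (2.04). The T cell markers in the same libraries rose too, and their part in S1pr1 and S1pr4 was not tested. P2ry14 had 7.41, 9.74 and 11.1 CPM in the lymph node libraries and 36.6, 41.1 and 43.3 CPM in the spleen libraries. This receptor for UDP-sugars fell (log2 fold change -2.10 ± 0.21, adjusted p = 2.34e-06). Gpr132 fell by 0.98 from 436, 411 and 443 CPM. Ccr8 rose from 0, 0.0333 and 0 to 0.648, 1.21 and 0.701 CPM and was low throughout.

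Cytokine genes also went both ways, with 6 rises and 8 falls of 26. Csf1 had 88.3, 62.3 and 95.9 CPM in the lymph node libraries and 14.5, 19.5 and 17.6 CPM in the spleen libraries. The macrophage growth factor was higher in each lymph node library (log2 fold change 2.26 ± 0.28, adjusted p = 2.36e-05). Flt3l had 14.6, 16.5 and 17.1 CPM in the lymph node libraries and 1.15, 1.76 and 2.8 CPM in the spleen libraries. The ligand of FLT3 rose from a low level in spleen (log2 fold change 3.08 ± 0.32, adjusted p = 2.59e-06). T cell markers rose in the same libraries, and their part in the rise of Flt3l was not tested. Il7 rose by 1.16 and Ebi3, a subunit of interleukin 27, by 0.57, but 23.4% of the exon bases of Ebi3 are shared with the model Gm16712. Tnf had 41, 39.5 and 32.3 CPM in the lymph node libraries and 143, 152 and 161 CPM in the spleen libraries. Tnf fell without overlap (log2 fold change -2.02 ± 0.14, adjusted p = 4.34e-08), together with Il1b (-1.81), Ltb (-1.44) and Il10 (-2.19). The Il10 values were 0.324, 1.03 and 0.625 CPM in lymph node and 2.49, 3.49 and 3.09 CPM in spleen.

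The 15 steepest rises among genes averaging 3 log2 CPM or more came from several functions. Slc27a3 had 131, 103 and 123 CPM in the lymph node libraries and 2.51, 2.46 and 3.53 CPM in the spleen libraries. Slc27a3, a fatty acid transporter and acyl-CoA synthetase on chromosome 3 (90385239 to 90389938 of mm10, minus strand), was 42.1-fold higher (log2 fold change 5.40 ± 0.61, adjusted p = 5.4e-05). Slamf1 had 72.1, 72.6 and 66.9 CPM in the lymph node libraries and 5.02, 4.92 and 6.55 CPM in the spleen libraries. This receptor of the SLAM family was 12.8-fold higher (log2 fold change 3.68 ± 0.16, adjusted p = 2.28e-10), and it is also found on T cells, whose markers rose in the same libraries. Mfge8 had 558, 507 and 592 CPM in the lymph node libraries and 55.3, 56.6 and 58 CPM in the spleen libraries. Mfge8, on chromosome 7 (79133768 to 79149060 of mm10, minus strand), encodes a bridge between phosphatidylserine on dying cells and integrins (log2 fold change 3.29 ± 0.13, adjusted p = 8.97e-11).

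Clu had 458, 481 and 498 CPM in the lymph node libraries and 63.2, 68.4 and 59.4 CPM in the spleen libraries. Clu, on chromosome 14 (65968483 to 65981547 of mm10, plus strand), encodes clusterin, a secreted chaperone (log2 fold change 2.91 ± 0.10, adjusted p = 2.81e-11). Wnt11, a secreted Wnt ligand, had 93.5, 70.6 and 93.3 CPM in lymph node and 6.46, 11.5 and 10.1 CPM in spleen. Adm, the gene of the vasodilator adrenomedullin, rose by 3.44, and Cavin1, which builds caveolae, by 3.43. Selenom had 92.1, 95.2 and 97.8 CPM in the lymph node libraries and 10.2, 6.56 and 8.34 CPM in the spleen libraries. The selenoprotein gene Selenom rose without overlap (log2 fold change 3.50 ± 0.14, adjusted p = 1.54e-10). Gfpt2 (3.71), Ephx1 (3.49), St5 (2.89), Hgd (2.88), Gimap6 (2.75), Usp11 (2.71) and Fndc4 (2.62) complete the 15. Gimap6 is abundant in T cells, and their part in its rise was not tested. Gyg, the protein primer of glycogen, was less steep at 2.22 but ran from 101, 104 and 90.5 CPM in spleen to 447, 472 and 459 CPM in lymph node.

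Beyond the antibody genes, the steepest falls included genes of signalling and transport. Plac8 had 6.11, 8.25 and 6.88 CPM in the lymph node libraries and 91, 80.1 and 90.5 CPM in the spleen libraries. Plac8 was 12.3-fold lower in the lymph node (log2 fold change -3.62 ± 0.14, adjusted p = 7.76e-11). Trpm2 had 17.1, 10.3 and 14.3 CPM in the lymph node libraries and 162, 161 and 175 CPM in the spleen libraries. Trpm2 encodes a calcium channel opened by oxidative stress (log2 fold change -3.58 ± 0.19, adjusted p = 2.36e-09). Asb2 had 3.2, 3.89 and 2.82 CPM in the lymph node libraries and 47.6, 43.5 and 42.8 CPM in the spleen libraries. Asb2, a subunit of a ubiquitin ligase, was low in each lymph node library (log2 fold change -3.76 ± 0.23, adjusted p = 8.27e-09). Hfe, the haemochromatosis gene that tunes iron uptake, went from 81.9, 94.1 and 89.6 to 11.1, 16 and 10.2 CPM. Tcof1 (-2.92), Jdp2 (-3.13), Unc119 (-3.15), Abcg3 (-3.68), Slc12a3 (-2.93) and Ube2c (-2.86) also belonged to this set. Rgs2 had 82.2, 91.1 and 88.2 CPM in the lymph node libraries and 509, 490.3 and 488 CPM in the spleen libraries. Rgs2, a brake on G protein signalling, had one of the smallest p-values of the falls (log2 fold change -2.51 ± 0.10, adjusted p = 7.76e-11).

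Immediate early genes are switched on quickly and briefly by a stimulus, and they were lower in the lymph node cells. Of 33 tested 24 fell and 0 rose, with a median of -0.97, and their sum was 14088 to 16257 against 24041 to 25105 CPM. Nr4a1 had 99.2, 85.3 and 89.9 CPM in the lymph node libraries and 417, 430.4 and 337 CPM in the spleen libraries. The nuclear receptor NUR77, a reporter of recent signalling, fell without overlap (log2 fold change -2.11 ± 0.10, adjusted p = 7.43e-10). Fosb had 56.3, 65.7 and 45.8 CPM in the lymph node libraries and 267, 265 and 296 CPM in the spleen libraries. Fosb fell with the AP-1 genes Fos (-1.34), Jun (-1.03) and Junb (-0.46). Klf2 had 272, 129 and 278 CPM in lymph node and 812, 813 and 816 CPM in spleen, with replicate 2 of the lymph node lowest (log2 fold change -1.85 ± 0.27, adjusted p = 0.000323). Egr2 fell by 2.45 and Nr4a3 by 2.44.

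Heat shock genes moved in the same direction. Of 25 tested 17 fell and 1 rose, with a median of -0.71. Hspe1 had 69.4, 76 and 67.1 CPM in the lymph node libraries and 267, 243 and 296 CPM in the spleen libraries. Hspe1 encodes the mitochondrial cochaperone of HSP60 (log2 fold change -1.92 ± 0.09, adjusted p = 7.42e-10), and Hspd1, which lies head to head with it, fell by 0.88. Hspa1b had 582, 484 and 583 CPM in the lymph node libraries and 1422, 1443 and 1302 CPM in the spleen libraries. Reads of this inducible HSP70 gene can be shared with its copy Hspa1a, which fell by 1.17 (log2 fold change -1.34 ± 0.08, adjusted p = 6.04e-09 for Hspa1b). Hspb1 (-1.81), Hsph1 (-1.59) and Hsp90aa1 (-1.26) also fell, while Stip1 rose by 0.29. The constitutive chaperones Hspa8 and Hsp90ab1 fell by 0.26 and 0.40 only.

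Heat shock factors bind inverted repeats of GAA. Stretches from -130 to -31 of 3 members are shown with each GAANNTTC in capitals, taken and read as above, and were picked with their values known. They lie at chr1:55088018-55088117 (plus strand) for Hspe1, chr5:135887789-135887888 (plus strand) for Hspb1 and chr17:34959269-34959368 (minus strand) for Hspa1b.
Hspe1: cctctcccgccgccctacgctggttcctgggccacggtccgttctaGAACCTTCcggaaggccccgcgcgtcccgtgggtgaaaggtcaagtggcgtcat
Hspb1: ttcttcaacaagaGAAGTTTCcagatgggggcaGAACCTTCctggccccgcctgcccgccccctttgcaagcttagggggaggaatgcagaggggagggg
Hspa1b: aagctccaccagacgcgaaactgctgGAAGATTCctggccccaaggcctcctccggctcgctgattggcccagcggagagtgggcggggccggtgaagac
The match begins at -84 in Hspe1 and at -104 in Hspa1b, and Hspb1 holds a pair. Over the window of 250 bases before to 50 bases after the start, on both strands, GAANNTTC lay in 11 of 19 list promoters and in 7.86% of all promoters. The 19 are those of the 25 list genes that the table holds.

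Folding genes of the endoplasmic reticulum fell in 19 of 30 and rose in 1, with a median of -0.50. Herpud1 had 371, 328 and 427 CPM in the lymph node libraries and 772, 823 and 739 CPM in the spleen libraries. Herpud1, part of the degradation machinery there, fell in each lymph node library (log2 fold change -1.05 ± 0.10, adjusted p = 1.74e-06). Hspa5, the chaperone BiP, fell by 1.03, Creld2 by 1.47 and Xbp1, the transcription factor of the response, by 1.02. Derl3 went from 8.9, 14 and 8.53 to 0.13, 0.206 and 0.833 CPM. Plasma cells are rich in these transcripts, and their markers were 5008 to 5413 CPM in spleen and 242 to 271 CPM in lymph node; their part in these falls was not tested. The median in Ctrl mice was -0.24, with 15 falls.

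Proliferation genes fell more often than they rose. The 52 cell cycle genes held 26 falls and 3 rises, and their median was -0.94. In Ctrl mice the list had 23 falls and 12 rises and a median of -0.45, and the genotype difference was called for 0 members. Plasma cell, erythroid and neutrophil markers were also higher in spleen, and their part in these falls was not tested. Ube2c had 4.47, 3.61 and 4.17 CPM in the lymph node libraries and 31.4, 30.8 and 27 CPM in the spleen libraries. Ube2c serves the anaphase-promoting complex (log2 fold change -2.86 ± 0.19, adjusted p = 2.04e-08). Birc5 had 4.54, 4.62 and 6.99 CPM in the lymph node libraries and 31.9, 35.1 and 35.1 CPM in the spleen libraries. Survivin is part of the mitotic passenger complex (log2 fold change -2.66 ± 0.22, adjusted p = 2.35e-07). Mki67 was called lower (-0.90) although its groups overlapped, with 19.0 ± 10.5 CPM in lymph node and 35.5 ± 5.08 CPM in spleen. The licensing genes Cdt1 (0.78) and Mcm7 (0.74) and the cyclin Ccnd3 (1.15) rose. Ccnd3 had 367, 312 and 392 CPM in the lymph node libraries and 163, 167 and 154 CPM in the spleen libraries. Another D cyclin, Ccnd2, fell by 0.84 (75.1 CPM in lymph node and 134 CPM in spleen). Top2a, Cenpf, Ccna2 and Kif11 fell by 1.43 to 2.78.

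Interferon-stimulated genes rose more often than they fell, with 23 rises and 9 falls of 59 and a median of 0.23. In Ctrl mice the list had 21 rises and 19 falls and a median of 0.10, and the genotype difference was called for 0 members. The risers in cKO were mostly of low level. Ddx58, the RIG-I sensor of viral RNA, had 10.5, 8.8 and 7.86 CPM in lymph node and 0.487, 2.5 and 2.23 CPM in spleen (log2 fold change 2.39 ± 0.49, adjusted p = 0.00146). Slfn1 rose by 2.71, Ifit1 by 1.42 and Oas3 by 1.36. Ifi205 had 25.3, 21.8 and 30.1 CPM in the lymph node libraries and 104, 100.5 and 91.6 CPM in the spleen libraries. Ifi205, also listed among cDC1 identity genes, fell (log2 fold change -1.94 ± 0.13, adjusted p = 3.53e-08), as did Ifitm3 (-1.75) and Iigp1 (-2.15). Classical members such as Isg15 (-0.18), Mx1 (-0.03) and Rsad2 (-0.11) were not called.

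Sensors of microbes fell in 11 of 29 and rose in 4. Tlr3 had 2.55, 2.63 and 2.25 CPM in the lymph node libraries and 13.4, 14 and 12.5 CPM in the spleen libraries. Tlr3 is typical of cDC1s (log2 fold change -2.42 ± 0.40, adjusted p = 0.000276). Tlr1 (-1.72) and Tlr6 (-2.21), which pair with TLR2, fell, while Tlr2 (-0.25) and Tlr9 (-0.62) were not called. Clec12a had 67.7, 59.5 and 64.7 CPM in the lymph node libraries and 178, 184 and 190.0 CPM in the spleen libraries. This inhibitory lectin recognises dead cells (log2 fold change -1.52 ± 0.09, adjusted p = 9.92e-09). Ifih1, a cytosolic sensor of viral RNA, rose by 0.57 and Tmem173, the STING gene, by 0.82. Of 27 NF-kB genes 9 rose and 8 fell, and with total counts only 15 rose and 4 fell. Ikbkb had 792, 748 and 805 CPM in the lymph node libraries and 379.7, 401 and 368 CPM in the spleen libraries. The kinase IKK beta rose (log2 fold change 1.03 ± 0.07, adjusted p = 5.25e-08) and so did Tnip1 (0.82), whereas Rel (-1.13), Nfkbiz (-1.21) and Tnip3 (-1.28) fell.

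Adhesion genes changed by member. Of 34 tested 8 rose and 13 fell, and with total counts only 10 rose and 8 fell. Itgb8 had 18.1, 14.5 and 18.4 CPM in the lymph node libraries and 2.58, 1.93 and 1.15 CPM in the spleen libraries. Integrin alpha v beta 8 releases active TGF-beta from its latent form (log2 fold change 3.16 ± 0.34, adjusted p = 4.06e-06), but its alpha chain Itgav fell by 0.70. Itga1 had 17.7, 21.3 and 16.1 CPM in the lymph node libraries and 1.56, 1.13 and 2.04 CPM in the spleen libraries. Integrin alpha 1 binds collagen (log2 fold change 3.54 ± 0.42, adjusted p = 1.22e-05). Itgax had 37.4, 36.3 and 39 CPM in the lymph node libraries and 199, 187 and 191 CPM in the spleen libraries. The CD11c gene, a marker of dendritic cells, was 5.12-fold lower in lymph node (log2 fold change -2.36 ± 0.10, adjusted p = 2.53e-10). Cd44 had 113, 122 and 111 CPM in the lymph node libraries and 313, 321 and 303 CPM in the spleen libraries. The hyaluronan receptor fell without overlap (log2 fold change -1.44 ± 0.09, adjusted p = 1.09e-08), and Cadm1, a cDC1 adhesion molecule, fell by 1.48.

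TGF-beta and retinoic acid genes followed no single direction, with 4 rises and 12 falls of 35. Tgfb1 went from 33.2, 40.6 and 34.4 to 15.8, 13 and 14.2 CPM (log2 fold change -1.33 ± 0.21, adjusted p = 0.000161). Ahr had 26.7, 25.6 and 22.4 CPM in the lymph node libraries and 62.3, 57.8 and 63.1 CPM in the spleen libraries. The aryl hydrocarbon receptor fell (log2 fold change -1.29 ± 0.13, adjusted p = 2.16e-06). Aldh1a2, which makes retinoic acid, fell by 1.10, whereas the receptors Rara and Rarg rose by 0.85 and 1.83. Ido1 (-0.06) and Ido2 (-0.16), the tryptophan-degrading enzymes, were not called.

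Actin genes fell in 26 of 49 and rose in 10. This balance depended on scaling, since with total counts only 12 fell and 15 rose, and without Spleen cKO replicate 1 the falls numbered 16. Tmsb4x had 27439, 27672 and 26928 CPM in the lymph node libraries and 35299, 33130.4 and 35942 CPM in the spleen libraries. Thymosin beta 4, which holds actin monomers, was among the most abundant transcripts (log2 fold change -0.35 ± 0.05, adjusted p = 8.82e-05). Tmsb10 had 174, 144 and 150.3 CPM in the lymph node libraries and 474, 418 and 484 CPM in the spleen libraries. Its relative Tmsb10 fell further (log2 fold change -1.55 ± 0.09, adjusted p = 5.58e-09). Msn, which ties actin to the membrane, rose by 1.20, Actn4 by 1.18 and Rhoc by 1.34. Tpm2 fell by 1.95.

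Genes against oxidants and for metal handling fell in 15 of 31 and rose in 6. Gpx1 had 349, 377 and 376 CPM in the lymph node libraries and 1450.2, 1411 and 1527 CPM in the spleen libraries. Glutathione peroxidase 1 had one of the smallest p-values of all falls (log2 fold change -1.99 ± 0.07, adjusted p = 3.41e-11). Hmox1 had 2.83, 2.17 and 2.8 CPM in the lymph node libraries and 20.3, 22.6 and 19.4 CPM in the spleen libraries. Haem oxygenase 1 fell (log2 fold change -2.99 ± 0.29, adjusted p = 1.29e-06), and Slc11a1, an iron transporter of phagosomes, fell by 2.44. Macrophages of the spleen are rich in Hmox1, and macrophage markers summed to 594 to 670 CPM there. Hmox1 is itself in that marker list, and Apoe alone averaged 267 CPM in spleen, so the sum is no separate measure of macrophages. The part of macrophages in the fall of Hmox1 was not tested. Mt1 had 179, 217 and 159.9 CPM in the lymph node libraries and 61.9, 52.8 and 71 CPM in the spleen libraries. Metallothionein 1 rose (log2 fold change 1.58 ± 0.15, adjusted p = 1.47e-06). Fth1, the heavy chain of ferritin, rose by 0.29.

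Of 24 genes of lipid handling 3 rose and 4 fell, which is 29.2% called beside 29.4% of all genes, with a median of -0.08. Apoe had 46.8, 46.7 and 47.8 CPM in the lymph node libraries and 264, 286 and 252 CPM in the spleen libraries. Apolipoprotein E is made by macrophages and by some dendritic cells (log2 fold change -2.51 ± 0.09, adjusted p = 3.41e-11). Cd36 had 15.6, 12.3 and 17.9 CPM in the lymph node libraries and 60.5, 75.4 and 68.8 CPM in the spleen libraries. This scavenger receptor, high on resident cDC1s, fell (log2 fold change -2.16 ± 0.18, adjusted p = 2.7e-07), as did Lipa (-1.73) and Soat1 (-1.21). Fabp5 had 195, 212 and 184 CPM in the lymph node libraries and 95, 105 and 109.7 CPM in the spleen libraries. Fabp5 rose without overlap (log2 fold change 0.94 ± 0.11, adjusted p = 1.61e-05). Cholesterol synthesis genes had 2 rises and 6 falls of 23 and a median of -0.03, and with total counts only 5 rose and 1 fell. Without Spleen cKO replicate 1 the falls there numbered 3.

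Glycolysis and hypoxia genes rose in 9 of 30 and fell in 6, with 15 rises and 3 falls under total counts only. Without Spleen cKO replicate 1 the falls were 3. The hexokinases changed places: Hk1 went from 14.3, 25.8 and 18.6 to 43, 43 and 45 CPM and rose by 1.16, while Hk2 fell by 2.52 and Hk3 by 1.63. Ldha had 99.6, 92.1 and 118 CPM in the lymph node libraries and 207, 202 and 175 CPM in the spleen libraries. Lactate dehydrogenase A fell (log2 fold change -0.92 ± 0.11, adjusted p = 1.04e-05). Bnip3l, which targets mitochondria for removal, rose by 0.85. Nuclear genes of the respiratory chain fell in 16 of 46 and rose in 6, but with total counts only 5 fell and 17 rose. Cycs had 72.6, 80.4 and 75.5 CPM in the lymph node libraries and 179, 167 and 185 CPM in the spleen libraries. Cytochrome c had the largest fall of that list (log2 fold change -1.22 ± 0.09, adjusted p = 1.34e-07).

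Lysosomal genes rose in 10 of 39 and fell in 16, and with total counts only 15 rose and 8 fell. Cst3 had 8675, 8952 and 9167 CPM in the lymph node libraries and 21338, 21225 and 21441 CPM in the spleen libraries. Cystatin C, an inhibitor of cathepsins that is abundant in cDC1s, fell (log2 fold change -1.26 ± 0.05, adjusted p = 2.28e-10). Ctsb had 969, 820.2 and 1035 CPM in the lymph node libraries and 633, 656 and 575 CPM in the spleen libraries. Cathepsin B rose (log2 fold change 0.60 ± 0.10, adjusted p = 0.000307) along with Grn (0.72) and Atp6v1b2 (0.73). Psap went from 3354, 3480.0 and 3291 to 1276, 1696 and 1199 CPM and fell by 1.28.

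Survival genes included 5 rises and 9 falls of 26, against 10 and 6 with total counts only. Bcl2l11 had 66.2, 89.3 and 65.3 CPM in the lymph node libraries and 167, 173 and 164 CPM in the spleen libraries. BIM, a trigger of apoptosis in dendritic cells, fell (log2 fold change -1.19 ± 0.11, adjusted p = 1.33e-06). Bcl2l1 had 145, 128 and 149 CPM in the lymph node libraries and 112, 108 and 102 CPM in the spleen libraries. Its antagonist BCL-XL rose (log2 fold change 0.39 ± 0.10, adjusted p = 0.00659), whereas the survival gene Bcl2a1d fell by 0.73 and can share reads with its paralogs. Mcl1 had 948, 506 and 920.4 CPM in lymph node and 1133, 1104 and 1098 CPM in spleen, with replicate 2 low, and was not called (log2 fold change -0.49 ± 0.23, adjusted p = 0.139).

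Among 47 transcription factors 9 rose and 14 fell, against 13 and 10 with total counts only. Ikzf4 had 25.7, 32.1 and 22.8 CPM in the lymph node libraries and 4.48, 5.06 and 4.68 CPM in the spleen libraries. Ikzf4, known as Eos, rose (log2 fold change 2.50 ± 0.26, adjusted p = 2.92e-06), and Tcf4, the regulator of plasmacytoid dendritic cells, rose by 1.19. Mycl had 21.3, 21.1 and 27.5 CPM in the lymph node libraries and 78.1, 90.0 and 71.8 CPM in the spleen libraries. L-MYC, used by cDC1s, fell (log2 fold change -1.78 ± 0.16, adjusted p = 5.54e-07). Hes1, a Notch target, went from 6.07, 8.12 and 8.5 to 0.691, 0.251 and 0.511 CPM. Spi1 (0.00), Irf4 (0.43) and Zeb2 (0.31) were not called. Genes downstream of the deleted receptor, through JAK2 and STAT5, had 6 rises and 8 falls of 28, against 10 and 6 with total counts only. Sh2b3 had 189, 145 and 186 CPM in the lymph node libraries and 57.1, 64.2 and 57 CPM in the spleen libraries. Sh2b3, an inhibitor of JAK2, rose (log2 fold change 1.54 ± 0.15, adjusted p = 1.23e-06), Socs2 rose by 0.57, and Pim1 (-1.20) and Pim3 (-0.91) fell. Cish (-0.11), a classical STAT5 target, was not called.

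Receptors and bridges for apoptotic cells rose in 6 of 32 and fell in 7, against 9 and 4 with total counts only, beside 14.1% and 15.3% of all genes. Mfge8 led the risers, followed by Dock1 (2.99), a part of the engulfment machinery. Scarf1 had 25.4, 23.8 and 20.6 CPM in the lymph node libraries and 8.16, 6.46 and 5.92 CPM in the spleen libraries. Scarf1 is a scavenger receptor for dying cells (log2 fold change 1.76 ± 0.25, adjusted p = 5.5e-05). C1qc went from 1.17, 0.333 and 0.955 to 2.92, 4.16 and 4.75 CPM and is typical of macrophages. Cd300a (-2.64), Clec9a and Cd36 fell.

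The same tissue comparison in control mice placed most of these differences in both genotypes. There 7169 genes were called (41.3%), and 4224 were called in both, which is 82.7% of the cKO calls and 58.9% of the Ctrl calls. Of these 4213 had the same direction and 11 the opposite one. The comparisons share no library. Across the 7800 genes averaging 3 log2 CPM or more over the 12 libraries of both genotypes, the log2 fold changes had r = 0.904 and a slope of 0.735 of cKO on Ctrl, given as a description across genes, which are not replicates. Among 3042 of them called in both with the same direction, the difference was smaller in cKO in 2234 (73.4%), with median sizes of 0.75 in cKO and 0.93 in Ctrl on the log2 scale. The spleen controls were less alike than the other groups: Spleen Ctrl replicate 3 correlated at 0.909 and 0.927 with replicates 1 and 2 and at 0.942 to 0.944 with the Spleen cKO libraries, and replicates 1 and 2 correlated at 0.898. Its mitochondrial share was 1.08%, against 1.74 and 1.66%. Without it, an alternative chosen after seeing the data, the slope was 0.69 and 71.1% of the 3042 differences were smaller in cKO.

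**Figure D5:**
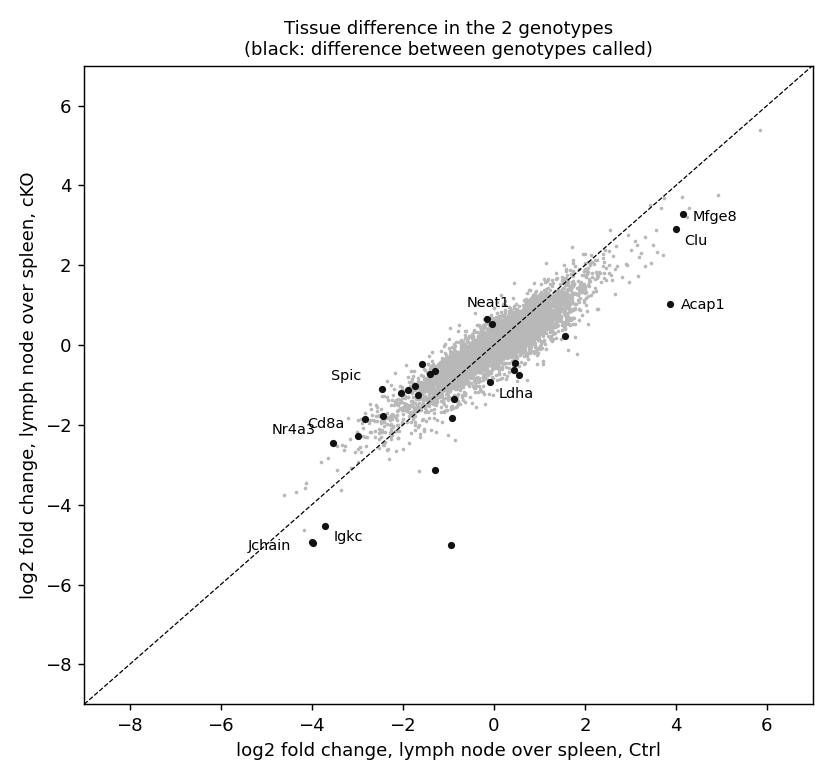
The log2 fold change of lymph node over spleen in Ctrl (x axis) and in cKO (y axis) for 7800 genes averaging 3 log2 CPM or more; the dashed line marks equal values and black points are the 29 genes among them whose difference between genotypes was called. Most points lie along a band less steep than the line, with Clu, Mfge8 and Acap1 nearer to 0 in cKO and Jchain further from 0.

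The test of the difference between genotypes called 55 genes (0.317%), 22 in the positive and 33 in the negative direction, and 2173 had an unadjusted p under 0.05. Of 883 genes called in cKO alone, 5 passed it. Immunoglobulin genes made up 25 of the 55. Receptor segments, 18 of the 55, went both ways, from 7.73 for Igkv2-109 to -13.7 for Ighv1-42. Spleen cKO libraries held more immunoglobulin reads, constant genes included, than spleen controls (0.493 to 0.562% against 0.212 to 0.25% of counts). The count ran from 15 with receptor segments and markers of other cells left out, or with replicate numbers as a block, to 426 with DESeq2. It was 222 without Spleen Ctrl replicate 3 and 29 without Spleen cKO replicate 1.

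Outside the antibody set some differences between genotypes were of degree and others of sign. The largest were Car6 (-13.9) and Amy1 (-13.0), which fell outside the naming rule. Amy1 averaged 109 CPM in lymph node Ctrl, 0.226 in lymph node cKO, 0.0337 in spleen Ctrl and 0.602 in spleen cKO. Car6 averaged 13.3 CPM in lymph node Ctrl and 0.0126 in lymph node cKO. Both were thus high in the lymph node controls only, and the source of these reads was not tested. Clu had 670.3, 575 and 689.8 CPM in lymph node and 45.1, 38.7 and 37.7 CPM in spleen of Ctrl mice, against 458, 481 and 498 and 63.2, 68.4 and 59.4 CPM in cKO mice. The rise in lymph node was present in both genotypes and smaller in cKO (difference -1.08, adjusted p = 0.000666), and it was called in 20 of 20 alternatives. Cd8a had 139, 122 and 141 CPM in lymph node and 1001, 978 and 1194 CPM in spleen of Ctrl mice, against 183, 199 and 193 and 942, 953 and 876 CPM in cKO mice. The fall was again shared and smaller in cKO (difference 0.71, adjusted p = 0.0178; 16 of 20 alternatives). Spic had 15.4, 14.1 and 12.3 CPM in lymph node and 89.4, 67.1 and 73.1 CPM in spleen of Ctrl mice, against 21.1, 24.6 and 17.8 and 45, 49.3 and 41 CPM in cKO mice. Spic, which drives the fate of red pulp macrophages, had a difference of 1.37 (adjusted p = 0.0102). The differences of Mfge8 (-0.87) and Nr4a3 (1.08) were called in 8 of 19 and 8 of 20 alternatives. Rac2, a GTPase of the cytoskeleton, fell in cKO (-0.44) and rose in Ctrl (0.46), and so did the integrin chain Itgb7 (-0.62 and 0.44), with the difference called in 11 of 20 and 9 of 20 alternatives.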

How the data were processed

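Poly(A) RNA of sorted cDC1s was sequenced after full-length SMART-Seq amplification. The deposited values are whole-number read counts per gene, made by the authors with featureCounts 2.0.8 on HISAT2 2.1.0 alignments to mm10, per the file headers and, for the aligner, the processing notes of the submitters. Both ends of a pair had to map, chimeric pairs were left out, a pair can add 2 counts, and strand was not used, so overlapping genes cannot be told apart. A table of 12 libraries was analysed, and 2 tables of other samples in the series were not used here.

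Genes were filtered with filterByExpr (minimum count 10, minimum total 15), which left 17362 of 55487, and scaled by TMM. edgeR 4.0.16 in R 4.3.3 fitted 4 group means to 12 libraries with a robust quasi-likelihood test (8 residual degrees of freedom) and Benjamini-Hochberg adjustment at 0.05. The contrasts were lymph node minus spleen in cKO, the same in Ctrl, and their difference. A positive log2 fold change is higher in lymph node, ± after it is the SE, and n is 3 libraries in each group. Total counts per library limit the precision to counting error at best: a floor of 3 counts is given as CPM. The script was tested on simulated data for the cKO comparison (16485 genes): it recovered 28.4% of 1.5-fold, 91.0% of 2-fold and 100% of 4-fold changes, with 8 false calls. The simulation set a dispersion of 0.03 and changed 200 genes. In the real libraries the common biological coefficient of variation, the square root of the dispersion, was 0.396. That spread is wider than the simulated one, so these rates check the script and do not give the power in the real data.

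Named genes were the sort and marker genes, the 15 largest changes and 8 smallest p-values in each direction (averaging 3 log2 CPM or more in the cKO libraries, no overlap, no receptor segments or unnamed models), up to 4 called members in each direction and the 2 most abundant members of each of 41 gene lists, and 6 genes in each direction of the genotype difference. Other list members were named after their values were seen. The lists and the comparison were chosen with earlier results of these data known, and lists are described by counts and medians without a test. Alternatives were RLE scaling, total counts only, no filter or 1 CPM in 3 libraries, DESeq2 1.42.0, limma-voom 3.58.1, glmTreat against a fold of 1.5, the 6 cKO libraries alone, leaving out each library, leaving out receptor segments and markers of other cells, and the replicate numbers as a block. Promoters came from RefSeq (GRCm38.p6).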

Additional observations from a re-analysis of the deposited data

Results flagged for a closer look

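The tissue difference itself differed between cKO and Ctrl mice, by the test of that difference in edgeR's quasi-likelihood fit with adjusted p under 0.05, for 26 genes of the lists or of the naming rule. Values are the log2 tissue difference in cKO minus that in Ctrl.

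The J chain and antibody constant genes in this set were further below 0 in cKO: Jchain (-0.98), Igkc (-0.82), Igha (-0.94), Ighg3 (-1.83), Ighg2b (-3.57), Iglc1 (-2.42) and Iglc2 (-4.07). Receptor segments, which are outside this set, went both ways, as with Igkv12-46 (6.41) and Igkv10-96 (-11.9). Rises in lymph node were smaller in cKO for Clu (-1.08), Mfge8 (-0.87) and Acap1 (-2.83).

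Falls in lymph node were smaller in cKO for Cd8a (0.71), the red pulp macrophage factor Spic (1.37), the protease Adam19 (0.71), Nabp1 of DNA repair (0.66), the NF-kB subunit Rel (0.76), the checkpoint ligand Cd274 (0.63), the apoptosis gene Bcl2l11 (0.86), the cathepsin inhibitor Cst3 (0.41) and the nuclear receptor Nr4a3 (1.08). The immediate early genes Egr1 (-0.90) and Fos (-0.48) went the other way.

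Ldha (-0.82) of glycolysis, the GTPase Rac2 (-0.90), the integrin chain Itgb7 (-1.06), the T cell gene Ms4a4b (-2.69) and the nuclear RNA Neat1 (0.57) complete the set. For Ldha the log2 tissue difference was -0.92 in cKO and -0.10 in Ctrl, for Neat1 0.54 and -0.04, for Rac2 -0.44 and 0.46, for Itgb7 -0.62 and 0.44, and for Ms4a4b 3.32 and 6.02.

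The difference passed in 20 of 20 alternatives for Clu, in 19 of 20 for Acap1, Adam19 and Nabp1, and in 19 of 19 for Spic, Jchain and Iglc2. It passed in 18 of 19 for Igkc and Igha, 17 of 19 for Ighg3, 16 of 19 for Ighg2b and Iglc1, 16 of 20 for Cd8a and Rel, 14 of 20 for Egr1, 13 of 20 for Ldha and Neat1, 11 of 20 for Cd274 and Rac2, and 10 of 20 for Fos. For Bcl2l11, Cst3 and Itgb7 it passed in 9 of 20, for Nr4a3 in 8 of 20, and for Mfge8 and Ms4a4b in 8 of 19.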

How the results depend on the processing

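The 5107 calls of the cKO comparison were kept in the same direction at 99.6% with RLE scaling, 99.7% with DESeq2, 98.5% with limma-voom, 97.7% with the 6 cKO libraries alone, and 74 to 82.2% when 1 cKO library was left out. Against a fold of 1.5, glmTreat called 1939 genes (818 higher, 1121 lower). With total counts only, 3996 were higher and 1752 lower, the share of higher calls went from 48.05% to 69.52%, and the median of all genes from 0.0029 to 0.2481. Irf8 (0.035) and Cd40 (0.22) then changed sign. Calls of the genotype difference, 55 (22 positive, 33 negative), were 364 (170, 194) with no filter, 426 (201, 225) with DESeq2, 36 positive with 1 CPM in 3 libraries, and 15 (8, 7) without receptor segments and markers of other cells. Leaving out 1 library gave 29 to 222 (7 to 69 positive, 20 to 153 negative). The cause was not tested. The 3042 genes called in both genotypes were fixed by the fit to all 12 libraries and not chosen again. Among them the share that was smaller in cKO stayed at 70.8 to 74.1% when any 1 of the 12 libraries was left out, an alternative chosen after seeing the data. Same-numbered libraries did not deviate together (r -0.0145 to 0.0105 in cKO), and neither did libraries of different number (r -0.0174 to 0.0235). With 3 libraries in each group this check cannot say whether the numbers pair them. With the replicate block 4072 cKO calls were kept (79.7%), and the genotype difference had 15 calls (4 positive, 11 negative). Depth limits low genes: values under 0.0568 to 0.0998 CPM are under 3 counts.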
